A study of Mus musculus with 6 samples.

Results

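The genes described here are 10 genes of hepatic fasting, leptin and insulin signalling: Lepr, Igfbp1, Igfbp2, Fgf21, Gcgr, Insr, Irs1, Irs2, Foxo1 and Foxo3. All 10 were found among the 22180 genes that had a row naming exactly 1 gene, and a gene with several such rows is given by its brightest row on average. RNA of whole liver was measured on 6 Affymetrix arrays, 3 of Pfn2-/- mice and 3 of wild-type mice. Pfn2-/- mice lack profilin 2, a protein that binds actin monomers. Both groups were of strain C57BL/6, with 1 animal per genotype at each of 8, 8.5 and 9 months of age, and neither group was treated. Replicates 1, 2 and 3 of both genotypes were 9, 8.5 and 8 months old. The sources used here give no feeding state, hour of dissection or sex of the animals, and no design of the null allele. Values are RMA expression values on the log2 scale, where a difference of 1 is a doubling of signal, and every difference is Pfn2-/- minus wild type.

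In the fasted liver, glucagon acts through its receptor (Gcgr) and cyclic AMP, while insulin falls. Insulin binds its receptor (Insr), which phosphorylates the adaptor proteins IRS1 and IRS2, and the kinase AKT then drives the transcription factors FOXO1 and FOXO3 out of the nucleus. FOXO1 that stays in the nucleus of a fasted hepatocyte induces genes such as Igfbp1, whose product binds insulin-like growth factors in plasma. The leptin receptor gene Lepr is induced in fasted mouse liver, which releases a soluble form of the receptor, and Fgf21 encodes a hormone that the liver secretes in fasting. Igfbp2 encodes a second plasma carrier of insulin-like growth factors.

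Lepr and Igfbp1 were the members that lay below wild type in every Pfn2-/- array, by about 2 log2 units each, while the other 8 members differed by at most 0.35 in size. None of the 10 passed the test across all genes, and 0% of all genes tested passed it (limma, Benjamini-Hochberg adjusted p under 0.05). The groups did not overlap for 3 of the 10 members, against 9.85% of all genes: Lepr and Igfbp1 were lower (4.76% of all genes) and Irs1 was higher (5.09%). An unadjusted limma p under 0.05 was reached by 3 of the 10 members, against 5.29% of all genes. They were the lower members Lepr, Igfbp1 and Foxo1 (2.62% of all genes), with 0 higher ones (2.67%). The lower members at that p were 2 without Pfn2-/- replicate 1 or 3 or wild-type replicate 1 or 2. They were 4 without wild-type replicate 3. A difference of 1 or more was measured for 2 lower members (0.126% of all genes) and 0 higher ones (0.0902%). The set was chosen by values already measured here, the large Pfn2-/- minus wild type differences of Lepr and Igfbp1 in these same 6 arrays, so the counts and p-values describe these arrays and are no independent support. The median difference of the 10 members was -0.10, beside 0.00 over all genes.

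The arrays themselves were alike in scale, with medians of 4.36 to 4.41 and lower quartiles of 3.51 to 3.57 over all rows. Pfn2 itself lay at 3.88, 3.81 and 3.93 in Pfn2-/- liver and at 4.02, 3.85 and 4.09 in wild-type liver, a difference of -0.11 (SE 0.12). The row was dim in both groups, and the stretch of transcript it covers is unknown here, so it does not check the genotype labels. Single arrays stood apart in gene groups that bear on feeding state and time of day, and these values are given beside the results they touch. Precision is limited by having 3 arrays per genotype.

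Lepr had log2 values of 3.99, 4.94 and 4.21 in Pfn2-/- replicates 1, 2 and 3, against 6.45, 6.77 and 5.74 in wild-type replicates 1, 2 and 3. The highest Pfn2-/- value, 4.94, lay below the lowest wild-type value, 5.74. The means were 4.38 ± 0.50 in Pfn2-/- liver and 6.32 ± 0.53 in wild-type liver (SD, n = 3 each), a difference of -1.94 (SE 0.29, 95% confidence interval -2.59 to -1.29), or 3.84-fold lower in Pfn2-/-. The limma adjusted p over all genes was 0.279. Of all genes, 4 had a smaller p than Lepr and 10 had a larger absolute difference. Pfn2-/- replicates 1 and 3 lay below the median of their arrays, where RMA compresses differences, so the size of the fold is not exact. Without wild-type replicate 3 Lepr passed the adjusted limma test (difference -2.23, adjusted p = 0.049), and over the 13 alternative settings tried the adjusted p ran between 0.0243 and 0.996.

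Igfbp1 had log2 values of 5.28, 7.18 and 7.12 in Pfn2-/- replicates 1 to 3, against 8.41, 9.31 and 8.19 in wild-type replicates 1 to 3. All 3 Pfn2-/- values lay below the lowest wild-type value, and Pfn2-/- replicate 1 lay furthest down. The means were 6.53 ± 1.08 in Pfn2-/- liver and 8.64 ± 0.59 in wild-type liver (SD, n = 3 each), a difference of -2.11 (SE 0.47, 95% confidence interval -3.16 to -1.06), or 4.32-fold lower in Pfn2-/-. The limma adjusted p over all genes was 0.668, with 40 genes at a smaller p and 7 with a larger absolute difference. Without Pfn2-/- replicate 1 the difference was -1.49, and no alternative setting brought the adjusted p of Igfbp1 below 0.182.

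**Figure D1:**
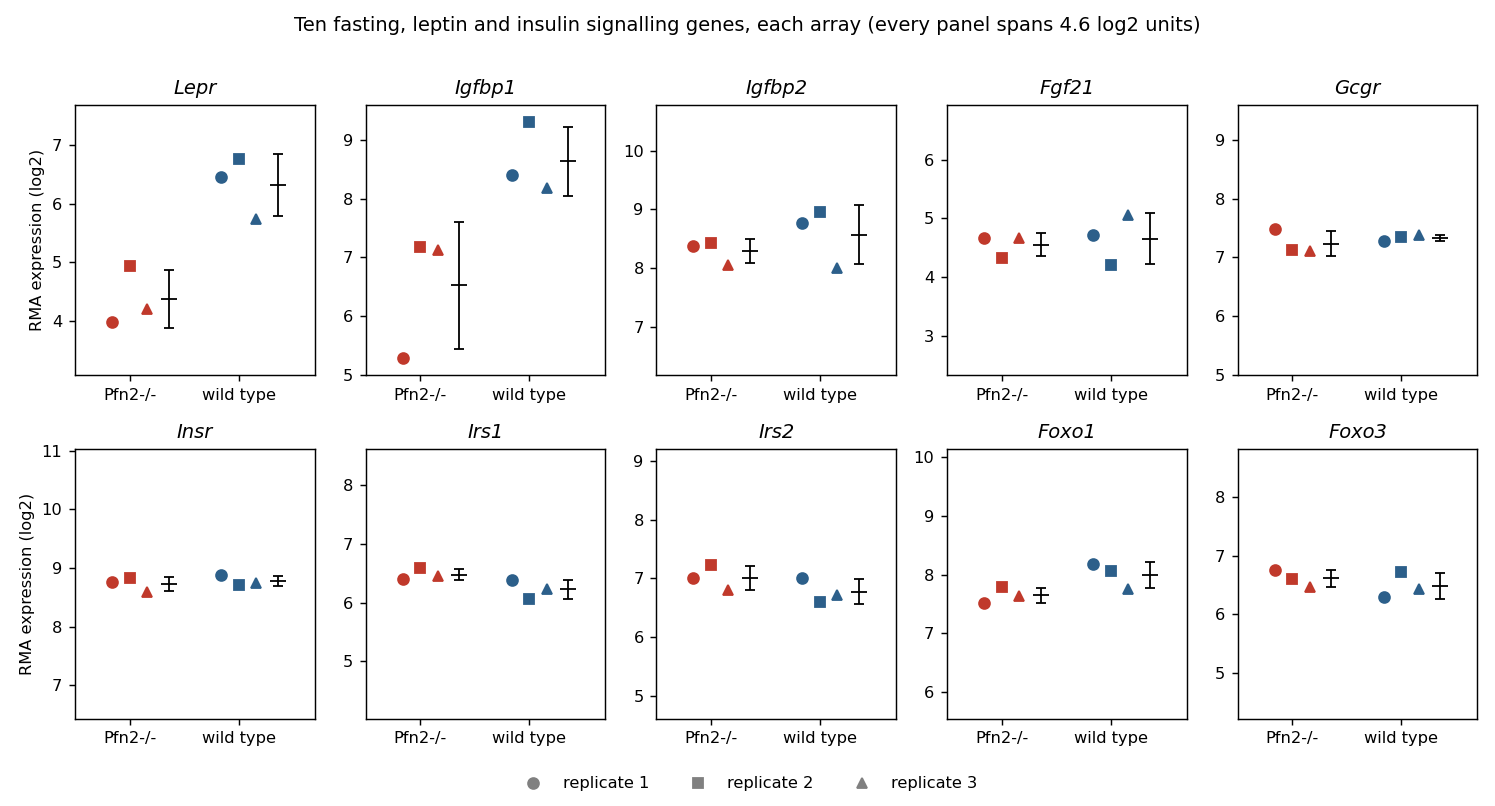
RMA expression (log2) of the 10 genes in each array, Pfn2-/- in red and wild type in blue, with replicate numbers as symbols and the group mean with SD as a black bar; every panel spans the same number of log2 units. Lepr and Igfbp1 separate the genotypes, Irs1 does so by 0.01, and the groups of the other 7 genes overlap.

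Lepr and Igfbp1 ranked the 6 arrays in the same order. For both Lepr and Igfbp1, Pfn2-/- replicate 1 was lowest, then Pfn2-/- replicate 3, Pfn2-/- replicate 2, wild-type replicate 3, wild-type replicate 1 and wild-type replicate 2. That order, with no ties, held for 43 of the 22180 genes (0.194%), Lepr and Igfbp1 included, and for 2 of the 10 members. Only genes with every Pfn2-/- array below wild type can have that order, and they were 1056 of all genes, so the share of all genes overstates its rarity. Since the groups of Lepr and Igfbp1 do not overlap, much of the shared order comes from the way they were chosen. At 8, 8.5 and 9 months, with 1 animal per genotype, Lepr differed by -1.53, -1.83 and -2.46. Igfbp1 differed by -1.07, -2.13 and -3.13 at the same ages, Foxo1 by -0.11, -0.28 and -0.67 and Igfbp2 by 0.05, -0.52 and -0.39. Gcgr differed by -0.27, -0.22 and 0.21, Fgf21 by -0.39, 0.13 and -0.05. Insr differed by -0.16, 0.11 and -0.11, Irs1 by 0.21, 0.53 and 0.01. Irs2 differed by 0.10, 0.62 and 0.00, Foxo3 by 0.04, -0.12 and 0.47. A lower difference at each older age was seen in Lepr, Igfbp1 and Foxo1 and in no other member. The effect of age and the animal measured cannot be told apart.

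The start site regions of the members were searched for letters that FOXO proteins, cyclic AMP response factors and the glucocorticoid receptor are known to bind, because Igfbp1 is the textbook gene for an insulin response sequence in its promoter. Windows of 300 bases, with 250 before and 50 after a start site, were available from RefSeq (GRCm38.p6) for 9 of the 10 members, all but Insr, and held 11 windows. The insulin response letters CAAAACA were searched on both strands. They were found in 4 of the 11 windows, of the members Igfbp1, Lepr, Irs1 and Irs2, and in 6.28% of all 32851 windows. The 4 windows follow, 5′ to 3′ on the strand of the gene, with those letters in capitals. They lie at chr11:7197537-7197836 on the plus strand for Igfbp1 and at chr4:101717656-101717955 on the plus strand for Lepr. Those of Irs1 and Irs2 lie at chr1:82291390-82291689 and chr8:11008880-11009179, both on the minus strand.
Igfbp1: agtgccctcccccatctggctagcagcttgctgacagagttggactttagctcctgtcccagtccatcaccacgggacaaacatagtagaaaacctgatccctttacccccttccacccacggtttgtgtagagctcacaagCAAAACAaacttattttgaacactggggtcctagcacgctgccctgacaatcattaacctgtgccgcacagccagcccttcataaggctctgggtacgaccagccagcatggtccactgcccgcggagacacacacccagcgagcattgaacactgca
Lepr: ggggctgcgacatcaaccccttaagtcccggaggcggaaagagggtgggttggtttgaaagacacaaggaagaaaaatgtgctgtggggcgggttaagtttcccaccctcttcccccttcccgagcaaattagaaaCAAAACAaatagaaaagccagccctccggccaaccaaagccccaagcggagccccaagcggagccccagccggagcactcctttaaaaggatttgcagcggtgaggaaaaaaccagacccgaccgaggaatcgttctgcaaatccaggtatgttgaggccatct
Irs1: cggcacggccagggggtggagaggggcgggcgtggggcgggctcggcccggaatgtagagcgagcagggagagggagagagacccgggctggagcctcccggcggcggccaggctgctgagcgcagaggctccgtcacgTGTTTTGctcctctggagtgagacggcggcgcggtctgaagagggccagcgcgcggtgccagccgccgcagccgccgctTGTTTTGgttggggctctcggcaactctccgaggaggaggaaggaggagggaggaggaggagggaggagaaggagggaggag
Irs2: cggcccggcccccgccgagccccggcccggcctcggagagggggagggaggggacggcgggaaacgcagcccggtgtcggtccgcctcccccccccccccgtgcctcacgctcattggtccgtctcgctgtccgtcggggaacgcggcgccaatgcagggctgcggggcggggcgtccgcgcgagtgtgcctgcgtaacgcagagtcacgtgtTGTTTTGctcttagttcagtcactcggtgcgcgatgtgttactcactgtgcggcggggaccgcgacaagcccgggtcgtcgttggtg
Counted from the start site, the letters begin at position -108 in Igfbp1 and at -114 in Lepr. Irs1 held them on the other strand, read there as TGTTTTG, at -111 and -32, and Irs2 held them likewise at -37. The Lepr window shown is one of a pair of start sites in the table, and the other window of Lepr held none of the motifs searched. Of the genes nearest in profile to Lepr or Igfbp1, given below, 5 had a window, and these letters were in 0 of the 5. The part of these letters in any difference was not tested.

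The FOXO core GTAAACA, the full cyclic AMP response element TGACGTCA and the palindromic glucocorticoid response element, searched on both strands, were in none of the 11 member windows. They were in 3.65%, 1.79% and 0.475% of all windows. The shorter cyclic AMP response site TGACG, which the full element also contains, was in the windows of Fgf21, Irs1 and Foxo3 and in 20.8% of all windows. A match in such a window is a description of the sequence and not a measured binding site.

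Among the secreted carriers and hormones, Igfbp2 and Fgf21 did not separate the genotypes. Igfbp2 lay at 8.37, 8.43 and 8.05 in Pfn2-/- arrays, against 8.76, 8.95 and 8.00 in wild-type arrays. Its groups overlapped through wild-type replicate 3, the lowest array of all, and the difference was -0.29 (SE 0.23, 95% confidence interval -0.80 to 0.23). The difference came to -0.57 when wild-type replicate 3 was left out and to -0.10 when wild-type replicate 2 was. Fgf21 lay at 4.66, 4.33 and 4.67 in Pfn2-/- arrays and at 4.71, 4.20 and 5.06 in wild-type arrays, close to the array medians of 4.36 to 4.41. Its difference of -0.10 (SE 0.21) turned positive without Pfn2-/- replicate 2 (0.0083) and without wild-type replicate 3 (0.10), and a row this dim leaves little room to see a decrease.

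Of the receptors of the fasting and fed hormones, Gcgr and Insr differed by less than their standard errors with all arrays. Gcgr lay at 7.48, 7.12 and 7.10 in Pfn2-/- arrays and at 7.27, 7.34 and 7.37 in wild-type arrays, a difference of -0.09 (SE 0.14, 95% confidence interval -0.40 to 0.21). When arrays were left out it ran between -0.22 (SE 0.13, without Pfn2-/- replicate 1) and -0.03 (without Pfn2-/- replicate 3). Insr lay at 8.77, 8.83 and 8.59 in Pfn2-/- arrays and at 8.88, 8.72 and 8.75 in wild-type arrays, a difference of -0.05 (SE 0.12, 95% confidence interval -0.33 to 0.22). The sign of Insr turned without Pfn2-/- replicate 3 (0.017). The intervals leave room for differences of up to 0.40 in Gcgr and 0.33 in Insr, both far smaller than those measured for Lepr and Igfbp1.

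The insulin receptor substrates lay slightly higher in Pfn2-/- arrays. Irs1, the adaptor with the larger part in growth signalling, lay at 6.40, 6.59 and 6.45 in Pfn2-/- liver and at 6.39, 6.06 and 6.24 in wild-type liver. These groups were apart by 0.01 and the difference was 0.25 (SE 0.13, 95% confidence interval -0.04 to 0.54, limma adjusted p = 0.943). Irs2, which in mouse liver is induced in fasting, lay at 7.01, 7.22 and 6.81 in Pfn2-/- liver and at 7.01, 6.60 and 6.71 in wild-type liver, a difference of 0.24 (SE 0.16, 95% confidence interval -0.11 to 0.59). Its sign was thus opposite to that of Lepr and Igfbp1, and its groups overlapped. A second, dimmer row of Irs1 lay at 3.49 to 3.70 over the 6 arrays, near the lower quartile of all rows, and the mean of both rows differed by 0.10. Irs1 ran between 0.17 and 0.33 and Irs2 between 0.14 and 0.36 when single arrays were left out.

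The transcription factor genes differed in opposite directions. Foxo1 lay at 7.51, 7.78 and 7.64 in Pfn2-/- liver, against 8.18, 8.06 and 7.75 in wild-type liver. Pfn2-/- replicate 2 lay above wild-type replicate 3, so the groups overlapped. The difference was -0.35 (SE 0.15, 95% confidence interval -0.68 to -0.03, unadjusted p = 0.0372 and adjusted p = 0.92 by limma). It ran between -0.48 and -0.26 when single arrays were left out. The unadjusted limma p was 0.123 without Pfn2-/- replicate 1 and 0.0696 without Pfn2-/- replicate 3. It was 0.142 without wild-type replicate 1, 0.0961 without wild-type replicate 2 and 0.377 with the mean of rows. A second row of Foxo1, with lower values of 4.92 to 5.45, differed by 0.12, and the mean of both rows differed by -0.12. Foxo3 lay at 6.76, 6.61 and 6.47 in Pfn2-/- liver and at 6.29, 6.73 and 6.43 in wild-type liver, a difference of 0.13 (SE 0.15) that ran between 0.03 and 0.25 when single arrays were left out. FOXO proteins are controlled mostly by phosphorylation, which RNA arrays do not measure.

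**Figure D2:**
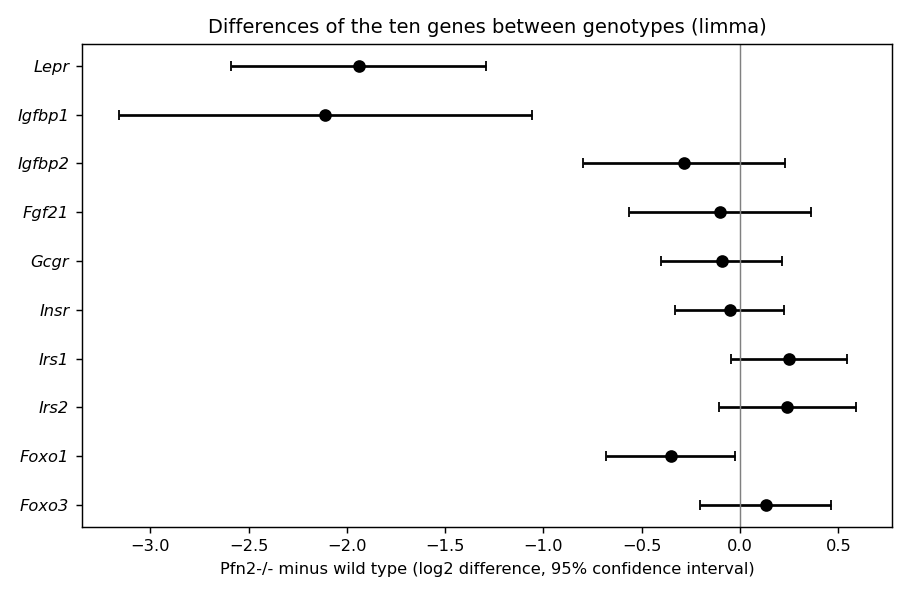
Pfn2-/- minus wild type difference (log2) of each of the 10 genes from the limma fit across all genes, with points for the estimate and bars for the 95% confidence interval, 3 arrays per group. The intervals of Lepr, Igfbp1 and Foxo1 lie below 0 and those of the other 7 include 0, before any adjustment for the number of genes.

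Other genes known to be induced by fasting in liver were mostly lower in Pfn2-/- arrays by a small amount, and the classical gluconeogenic genes were within the spread. Of 30 such genes listed besides the members, 27 were measured, and the others were not analysed here. Of the 27, 21 had a difference below 0 (77.8%, beside 49.9% of all genes), with a median of -0.22 beside 0.00 over all genes, and 0 passed the adjusted limma test. At an unadjusted p under 0.05 there were 7 lower and 2 higher genes, beside 2.62% lower and 2.67% higher over all genes. The groups did not overlap for 3 lower and 2 higher genes, 18.5% of the list beside 9.85% of all genes. The 7 and 2 were 3 and 1 without Pfn2-/- replicate 1, 4 and 2 without wild-type replicate 1, and 4 and 1 without wild-type replicate 2. They were 11 and 2 without Pfn2-/- replicate 3 (median -0.36), and 12 and 3 without wild-type replicate 3. The mean of the list, with each gene centred on its own average, was -0.27, -0.26 and 0.13 in Pfn2-/- replicates 1 to 3, against 0.26, 0.07 and 0.07 in wild-type replicates 1 to 3. Pfn2-/- replicate 3 thus lay among the wild-type arrays for the mean of the list, while it lay below all of them for Lepr and Igfbp1. That mean was raised by Cdkn1a, chosen after its values were seen. Cdkn1a lay at 5.27, 5.16 and 8.30 in Pfn2-/- replicates 1 to 3, against 6.69, 6.52 and 5.60 in wild-type replicates 1 to 3. The place of Pfn2-/- replicate 3 among the wild-type arrays therefore leans on 1 gene. The array order of Lepr and Igfbp1 was held by 0 of the 27 genes. As 0.194% of all genes have it, this exact order cannot show in a list this short whether its genes move with Lepr and Igfbp1. Nearness of profiles is given below.

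Lpin1, a phosphatidate phosphatase gene that PGC-1α induces in fasting, was the list gene with the largest difference. It lay at 8.36, 8.30 and 9.56 in Pfn2-/- liver, against 10.54, 11.31 and 10.36 in wild-type liver, a difference of -1.997 (SE 0.34, limma adjusted p = 0.444). Its paralog Lpin2 differed by -0.47 (SE 0.17) and the acyl-CoA thioesterase gene Acot1 by -0.48 (SE 0.18), both with groups that did not overlap. Acot1 has near-identical paralogs whose RNA may contribute to its row, so its value is uncertain. On the higher side Cited2, a transcriptional coregulator that glucagon is known to induce in liver, differed by 0.75 (SE 0.21), and the pantetheinase gene Vnn1, a PPARα target, by 0.69 (SE 0.22). These last genes are fasting-induced too, so the list did not go one way.

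Among the gluconeogenic genes, Pck1, which encodes the cytosolic phosphoenolpyruvate carboxykinase, lay at 11.53, 11.54 and 11.62 in Pfn2-/- liver and at 12.19, 12.01 and 11.15 in wild-type liver, a difference of -0.22 (SE 0.23). G6pc, the glucose-6-phosphatase gene, differed by -0.27 (SE 0.27). Their groups overlapped, in Pck1 through wild-type replicate 3, its lowest array. Ppargc1a, which encodes the coactivator PGC-1α, lay at 6.58, 7.13 and 6.33 in Pfn2-/- liver, against 7.58, 7.62 and 6.81 in wild-type liver, a difference of -0.66 (SE 0.25, unadjusted p = 0.0271 by limma). Of the genes of fatty acid oxidation and its regulation, Cpt1a differed by -0.21 (SE 0.16), Angptl4 by -0.32 (SE 0.26) and Pdk4, a pyruvate dehydrogenase kinase gene, by -0.20 (SE 0.34). All of these groups overlapped.

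**Figure D3:**
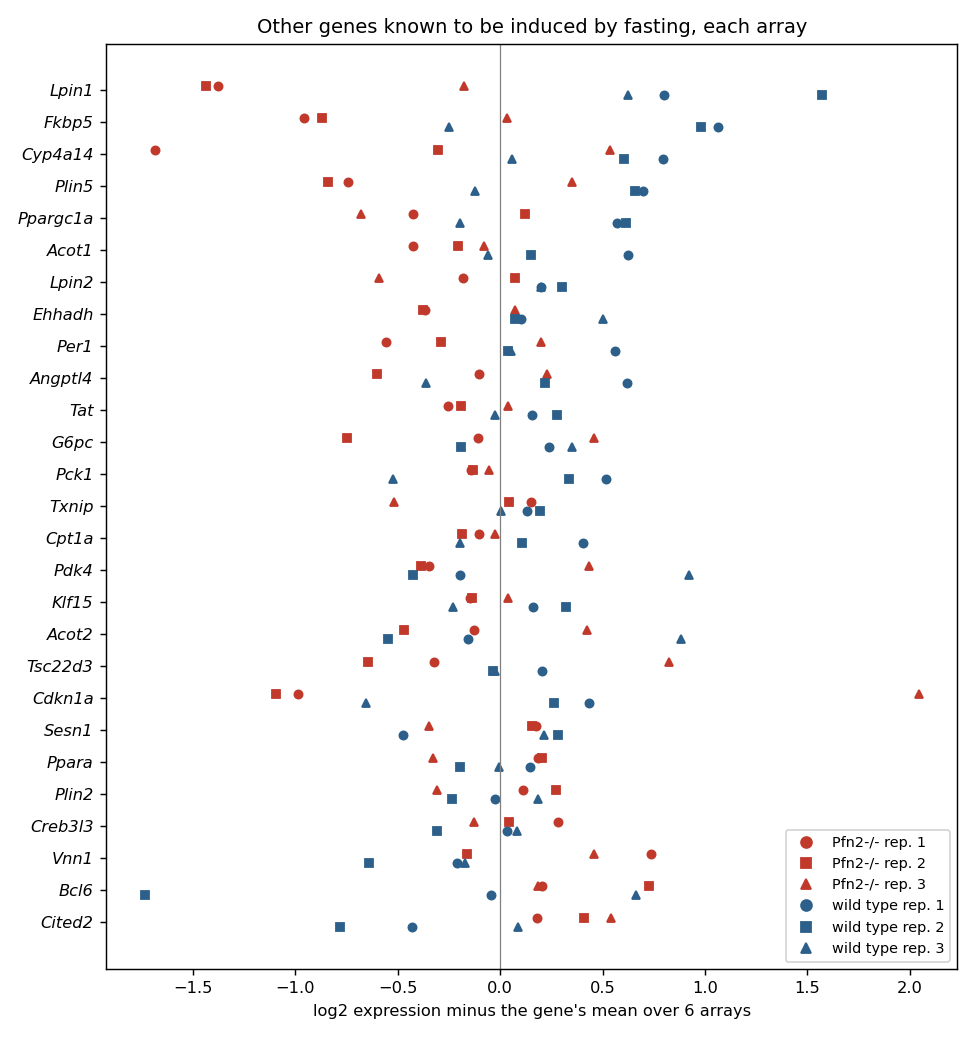
Log2 expression of 27 other fasting-induced genes in each array, minus the gene's mean over 6 arrays, Pfn2-/- in red above wild type in blue, genes ordered by difference with the lowest at the top. Lpin1 is at the top with groups far apart, and most other genes overlap between genotypes.

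The profiles nearest to Lepr and Igfbp1 over the 6 arrays included each other. Likeness was measured as the root mean square difference between profiles centred on their own mean, in log2 units, over all genes and 6 arrays. It rewards genes that share the size of the genotype difference, so it is no evidence apart from that difference. The nearest gene to Lepr was Slc16a5, of the monocarboxylate transporter family (0.22), followed by the ceramide synthase gene Cers6 (0.34), the magnesium transporter family gene Nipal1 (0.47), the neuregulin gene Nrg4 (0.48) and the aspartate aminotransferase gene Got1 (0.50). Igfbp1 came next, the 6th nearest of all genes, at 0.51. The nearest gene to Igfbp1 was Lepr, also at 0.51, followed by Lpin1 (0.58), Slc16a5 (0.61), Cyp4a14 (0.70) and Nipal1 (0.70). Of these, Lpin1 and Cyp4a14 are on the fasting list. Other list genes lay at both ends of the ranking by nearness to Lepr. Lpin1 was at rank 21, Fkbp5, chosen after its values were seen, at 27 and Ppargc1a at 37, while Cited2 was at 22097 and Vnn1 at 22101. By nearness to Igfbp1, Lpin1 was at rank 2, Fkbp5 at 11 and Ppargc1a at 95, while Cited2 was at 22077 and Vnn1 at 22120. Some list genes thus lay near both profiles and others far from both.

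Values of these neighbours show what the likeness rests on. Slc16a5 lay at 6.48, 7.10 and 6.66 in Pfn2-/- liver, against 9.30, 9.02 and 8.25 in wild-type liver, so wild-type replicate 3 was the lowest of its group as in Lepr. Nipal1 lay at 4.17, 5.66 and 4.18 in Pfn2-/- liver, against 7.72, 7.95 and 6.40 in wild-type liver, and shared the array order of Lepr. Cers6 differed by -1.35 (SE 0.33), Nrg4 by -1.09 (SE 0.28) and Got1 by -1.10 (SE 0.21). Cyp4a14, a PPARα target whose close paralogs make its row uncertain, lay at 7.39, 8.77 and 9.61 in Pfn2-/- liver and at 9.87, 9.68 and 9.13 in wild-type liver, and its groups overlapped. None of these 7 genes passed the adjusted limma test over all genes, where the smallest adjusted p among them was 0.094, for Slc16a5.

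**Figure D4:**
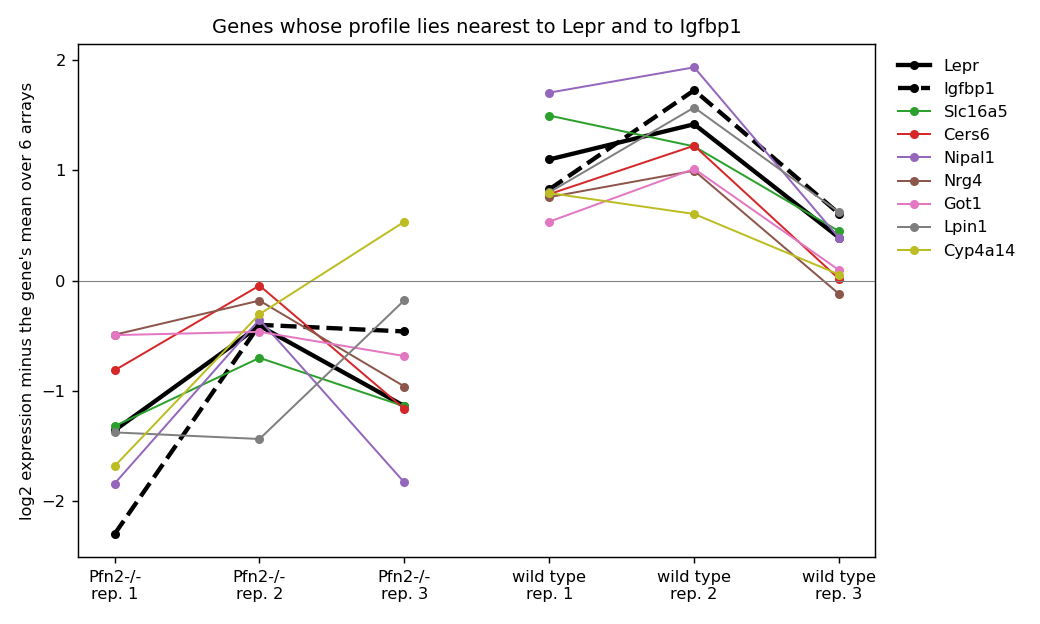
Log2 expression minus the gene's mean over 6 arrays for Lepr (solid black), Igfbp1 (dashed black) and the genes nearest to either, in the 3 Pfn2-/- arrays and then the 3 wild-type arrays. Lines join the points of 1 gene within a genotype and imply no order of animals. Wild-type replicate 3 is the lowest wild-type array of every gene drawn.

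The mean level of FOXO target genes overlapped between the genotypes. Of 20 listed, 19 were measured, and 14 had a difference below 0 and 5 above, beside 49.9% of all genes below 0. The median was -0.16, beside 0.00 over all genes. With any single array left out that median was nearer to 0, at -0.12 to -0.08. At an unadjusted p under 0.05 there were 1 lower gene, Ppargc1a, and 1 higher gene, Cited2, beside 2.62% lower and 2.67% higher over all genes. The adjusted limma test was passed by 0 of them. The mean of the list, with each gene centred on its own average, was -0.09, 0.01 and 0.00 in Pfn2-/- replicates 1 to 3 and 0.09, -0.04 and 0.02 in wild-type replicates 1 to 3. The list shares genes with the fasting list, among them Cited2 and Ppargc1a.

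Genes induced by feeding and insulin, which should run opposite to fasting genes, were dominated by 1 wild-type animal. The 14 measured genes of 15 listed had a median of -0.57, with 12 below 0, beside 49.9% of all genes. The adjusted limma test was passed by 0 of them. Their mean centred level was 0.01, -0.39 and -0.31 in Pfn2-/- replicates 1 to 3, against -0.32, -0.25 and 1.27 in wild-type replicates 1 to 3. Without wild-type replicate 3 the median was -0.01. The fatty acid synthase gene Fasn, chosen after its values were seen, lay at 10.17, 9.43 and 9.24 in Pfn2-/- arrays and at 9.12, 9.41 and 11.84 in wild-type arrays. Srebf1, the lipogenic transcription factor gene that insulin induces, lay at 8.03, 7.78 and 7.44 in Pfn2-/- arrays and at 7.36, 7.47 and 8.76 in wild-type arrays. The desaturase gene Scd1 was the list gene whose groups did not overlap (-0.35, SE 0.13), 7.14% of the list beside 9.85% of all genes. Scd1 and Thrsp, a lipogenic regulator gene, were the lower genes at an unadjusted p under 0.05, 2 of 14 beside 2.62% of all genes. These 2 lower genes became 7 without wild-type replicate 2, 5 without wild-type replicate 1 or with the replicate block and 4 with a trend in eBayes, while there were 0 lower and 1 higher without wild-type replicate 3. Wild-type replicate 3, high in these genes, had the lowest wild-type values of Lepr, Igfbp1, Igfbp2 and Foxo1. That is 40% of the members, beside 33.4% of all genes, and the same array had the highest wild-type values of Fgf21 and Gcgr. Lepr and Igfbp1 differed by -2.23 and -2.33 without wild-type replicate 3. Larger differences there were fixed in advance, because that array held their lowest wild-type values. The part of feeding state in the differences was not tested.

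Glucocorticoid-responsive genes, which stress and fasting hormones induce, varied widely between animals of 1 genotype. Of 12 measured genes 10 had a difference below 0, beside 49.9% of all genes, with a median of -0.27 and 0 past the adjusted limma test. Their mean centred level was -0.64, -0.40 and 0.41 in Pfn2-/- replicates 1 to 3 and 0.49, 0.51 and -0.37 in wild-type replicates 1 to 3, so the genotypes overlapped. At an unadjusted p under 0.05 there were 2 lower genes of the 12, Fkbp5 and the transcription factor gene Zbtb16, beside 2.62% of all genes. The 2 became 7 without Pfn2-/- replicate 3 (median -0.59), 5 without wild-type replicate 3 and 6 with array weights, and 1 without any other single array. Over all genes, 1174 reached that p in either direction in the main fit. They were 1295 without Pfn2-/- replicate 3, 1560 without wild-type replicate 3 and 1601 with array weights. Fkbp5, a cochaperone gene of the glucocorticoid receptor chosen after its values were seen, lay at 5.35, 5.44 and 6.34 in Pfn2-/- liver, against 7.37, 7.29 and 6.06 in wild-type liver (difference -1.20, SE 0.36). Wild-type replicate 3 was the lowest wild-type array in 9 of the 12 genes, in 13 of the 27 fasting genes and in 33.4% of all genes. The part of glucocorticoid signalling in the differences of Lepr and Igfbp1, both of which glucocorticoids are known to affect, was not tested.

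**Figure D5:**
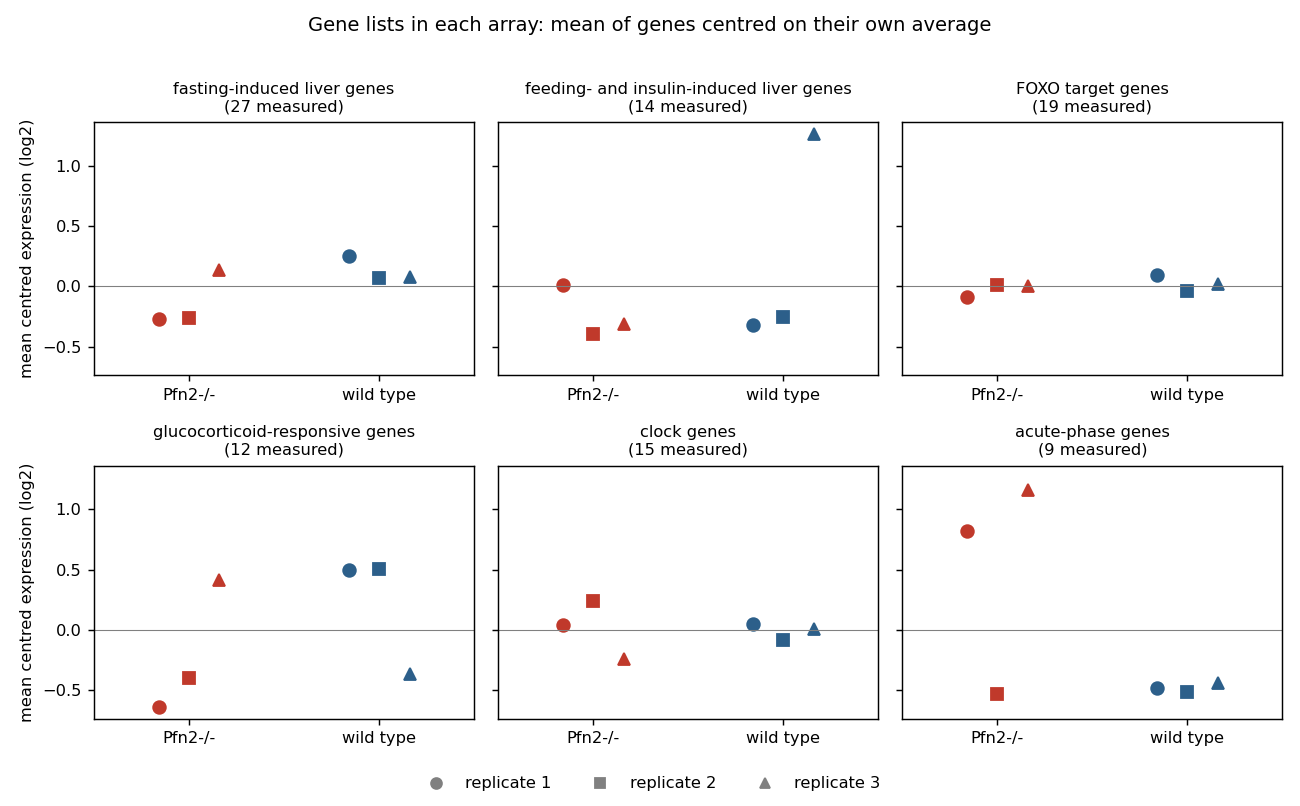
Mean of each gene list in each array (log2, every gene centred on its own average over 6 arrays), Pfn2-/- in red and wild type in blue. Wild-type replicate 3 stands apart in feeding- and insulin-induced genes, Pfn2-/- replicates 1 and 3 in acute-phase genes, and the genotypes overlap in each of the 6 lists drawn.

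In the leptin cascade around the receptor, the differences of genes other than Lepr were small where the groups were apart. Of 16 measured genes 10 had a difference below 0, beside 49.9% of all genes, with a median of -0.04, and 0 passed the adjusted limma test. An unadjusted p under 0.05 was reached by 2 lower genes of the 16, Leprot and Sh2b1, beside 2.62% of all genes. It was reached by 1 without Pfn2-/- replicate 3 or wild-type replicate 1, and by 0 after cyclic loess or without wild-type replicate 2. The mean of the list lay between -0.07 and -0.02 in Pfn2-/- arrays and between 0.03 and 0.08 in wild-type arrays, so it separated the genotypes by a small amount. Leprot, the coding gene next to Lepr on chromosome 4 in the RefSeq table, lay at 6.76, 6.95 and 6.61 in Pfn2-/- liver, against 7.04, 7.19 and 7.01 in wild-type liver, a difference of -0.31 (SE 0.13) with groups that did not overlap. Lep, the leptin gene of adipocytes, was named after its values were seen and was dim at 3.70, 3.60 and 4.0 in Pfn2-/- arrays and 3.89, 3.29 and 3.64 in wild-type arrays. Socs3, the feedback inhibitor that leptin and cytokines induce through STAT3, differed by 0.21 (SE 0.25), and Sh2b1, an adaptor of JAK2, by -0.28 (SE 0.12) with groups that did not overlap. The largest difference of the list was that of Socs2, a STAT5-induced inhibitor chosen after its values were seen (-0.99, groups overlapping).

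Downstream of the insulin receptor, 33 of 38 listed genes were measured, and their median difference was -0.03. The groups did not overlap for 2 lower genes, Akt1 and Mtor, and 2 higher genes, Sh2b2 and Prkcz, 12.1% of the list beside 9.85% of all genes, and 0 genes passed the adjusted limma test. Akt1, a kinase isoform that is not the main one of hepatic insulin action, lay at 6.77, 6.55 and 6.65 in Pfn2-/- liver, against 6.92, 6.96 and 6.96 in wild-type liver, a difference of -0.29 (SE 0.12). It was the single gene of that list at an unadjusted p under 0.05 by limma, 1 of 33 beside 5.29% of all genes. After cyclic loess, with the replicate block, and without Pfn2-/- replicate 2, wild-type replicate 1 or wild-type replicate 2 there were 0, and without Pfn2-/- replicate 3 there were 0 lower and 1 higher. In the glucagon and cyclic AMP cascade, 23 of 24 genes were measured, 12 lay below 0 and 11 above, and the median was -0.01. At an unadjusted p under 0.05 there were 2 lower genes of the 23, beside 2.62% of all genes. They were Ppargc1a and Sik1, a salt-inducible kinase gene that cyclic AMP induces (-0.53, SE 0.22, groups overlapping). That count was 0 without Pfn2-/- replicate 1, 1 without Pfn2-/- replicate 3, wild-type replicate 1 or wild-type replicate 2, and 3 without wild-type replicate 3.

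The other IGF-binding protein genes had smaller differences than Igfbp1. Of 8 measured genes of IGFs and their carriers 7 had a difference below 0, beside 49.9% of all genes, and the median was -0.10. By limma 0 of them had an unadjusted p under 0.05, beside 5.29% of all genes. There was 1 lower gene at that p without wild-type replicate 3 or with the replicate block. Igfbp3, the coding gene next to Igfbp1 on chromosome 11, lay at 6.80, 7.14 and 6.28 in Pfn2-/- liver and at 7.47, 7.27 and 6.58 in wild-type liver, a difference of -0.37 (SE 0.26). Igf1 lay at 10.35 to 10.43 in Pfn2-/- liver and at 10.51 to 10.59 in wild-type liver, groups that did not overlap (-0.16, SE 0.11). It was the single gene of that list with such groups, 12.5% of the list beside 9.85% of all genes. Among 11 FGF21 receptors and regulators the differences ran between -0.27 and 0.32. Groups that did not overlap were found for 0 of the 11, beside 9.85% of all genes, a share at which so few genes may well hold none.

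Whole liver holds several cell types, and fewer cells of a type cannot be told apart from less RNA per cell. The defining hepatocyte genes were high in every array, with a mean over 5 genes of 10.82 to 10.91 in Pfn2-/- liver and 10.88 to 10.98 in wild-type liver, as the tissue label says. The 7 endothelial markers averaged 7.65 to 7.87 in Pfn2-/- liver and 7.67 to 8.12 in wild-type liver, 6 of them with a difference below 0. The 7 stellate cell markers averaged 6.95 to 7.08 in Pfn2-/- liver and 6.95 to 7.20 in wild-type liver, with 5 below 0. The 6 Kupffer cell markers averaged 7.24 to 7.40 in Pfn2-/- liver and 7.11 to 7.87 in wild-type liver, with 5 below 0. Of all genes 49.9% had a difference below 0. So did all 5 hepatocyte markers and all 4 lymphocyte markers, against 1 of 4 cholangiocyte markers and 1 of 3 neutrophil markers. The endothelial gene Lyve1, chosen after its values were seen, lay at 6.72, 8.41 and 7.74 in Pfn2-/- liver and at 9.07, 9.23 and 6.78 in wild-type liver. Adipocyte markers (3.94 to 4.26 in Pfn2-/- and 4.04 to 4.11 in wild type, mean of 4 genes) and pancreas markers (3.96 to 4.19 in Pfn2-/- and 3.96 to 4.16 in wild type, mean of 5 genes) averaged below the array medians in both genotypes. The part of non-parenchymal cells in the difference of Lepr was not tested.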

How the data were processed

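Liver RNA of 3 Pfn2-/- and 3 wild-type mice was hybridised after biotin labelling, per the labels' protocols. Values on the log2 scale were deposited by the authors for each row of each array. They were made with RMA, and limma is also named, per the submitters' processing notes. The sources used here give no tool versions and do not say at which level probes were summarised. RMA corrects background, quantile normalizes arrays and summarises probes, so it removes shifts shared by all genes and compresses differences of dim rows. No read depth exists for arrays.

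Rows were named from the platform annotation: of 34390 rows 23521 named exactly 1 gene, 1814 several and 9055 were not listed. The row with the highest mean over 6 arrays was kept per gene, which left 22180 genes. The genotype difference was fitted in R 4.3.3 with limma 3.58.1 (lmFit, eBayes, genotype as the single term, two-sided, Benjamini-Hochberg over all genes), with 9.71 total degrees of freedom. The fit was tested on simulated data. Replicates are described as independent animals.

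The members and gene lists were chosen with earlier results of these data known, and no list was tested as a set. Of 238 listed symbols 221 were matched, and lists overlap. Named genes were the members, a fixed set of fasting, leptin and insulin genes, up to 6 genes per list with an unadjusted p under 0.05 and groups that do not overlap, and the 5 nearest profiles of Lepr and of Igfbp1; genes outside that rule are marked as chosen after their values were seen, or appear as counts of 5 or fewer and as neighbours on the chromosome. Alternatives were cyclic loess, median centring, leaving out dim genes, the mean of rows, eBayes with trend, array weights, a replicate block, and fits without 1 array at a time.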

Additional observations from a re-analysis of the deposited data

How the results depend on the processing

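Lepr, Igfbp1, Igfbp2, Gcgr, Irs1, Irs2, Foxo1 and Foxo3 kept their direction under all 13 alternatives, and no alternative brought a member other than Lepr past the adjusted threshold (limma). Leaving out each array in turn gave -2.23 to -1.72 for Lepr, -2.44 to -1.49 for Igfbp1, -0.33 to 0.10 for Fgf21 and -0.10 to 0.017 for Insr. Lepr had an adjusted p of 0.049 without wild-type replicate 3. Fgf21 was 0.0083 without Pfn2-/- replicate 2 and 0.10 without wild-type replicate 3, and Insr was 0.017 without Pfn2-/- replicate 3, turned from negative. Same-numbered arrays share an age, so the numbers match the animals of both genotypes by age, which the main fit leaves out. Their deviations from the group means correlated at -0.08, 0.15 and 0.02 across genes, beside -0.17 to 0.18 for arrays of other numbers. These correlations cannot decide whether age matters for a single gene. With the replicate block Lepr was -1.94 (SE 0.18, against 0.29 in the main fit) with an adjusted p of 0.0243 by limma. The SE of Igfbp1 was 0.32 with the block, against 0.47 in the main fit. With the block 7 genes of all passed, beside 2 with array weights. Leaving out each array gave 0 to 6 genes past the adjusted threshold and 892 to 1560 at an unadjusted p under 0.05, where leaving out dim genes gave 682, since fewer genes were tested. The fasting list's median was -0.36 to -0.14, and that of feeding- and insulin-induced genes -0.91 to -0.01, when arrays were left out. Fgf21 has no value with dim genes left out, because it is one of them. Otherwise the cause was not tested. Signal near background limits Lepr in Pfn2-/- liver and Fgf21 in both groups.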

Other observations

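Several genes of the circadian clock, which drives daily rhythms of hepatic metabolism, placed Pfn2-/- replicate 3 apart from the other Pfn2-/- animals. Arntl, which encodes the activator BMAL1, lay at 5.61, 5.66 and 7.82 in Pfn2-/- replicates 1 to 3, against 5.89, 5.42 and 6.62 in wild-type replicates 1 to 3. Dbp, an output gene of the clock, lay at 8.73, 9.06 and 6.06 in Pfn2-/- replicates and at 8.31, 8.47 and 8.35 in wild-type replicates. The repressor gene Nr1d1 lay at 9.25, 9.16 and 6.26 in Pfn2-/- replicates and at 7.38, 7.17 and 6.74 in wild-type replicates. For Nr1d1, Pfn2-/- replicates 1 and 2 thus lay far above every wild-type array, and Pfn2-/- replicate 3 lay below them by less. Arntl, Dbp and Nr1d1 were chosen after their values were seen. Lepr and Igfbp1 in Pfn2-/- replicate 3 lay between those of Pfn2-/- replicates 1 and 2, and without that array they differed by -1.85 and -2.41. Of the 15 measured clock genes, Npas2, a paralog of Clock, was the single one at an unadjusted p under 0.05 by limma, beside 5.29% of all genes. It lay at 4.24, 4.47 and 4.73 in Pfn2-/- liver, against 3.74, 3.98 and 4.04 in wild-type liver, and 0 clock genes passed the adjusted test. Without Pfn2-/- replicate 3 there were 5 higher and 3 lower clock genes at an unadjusted p under 0.05, Nr1d1 passed the adjusted test, and the median of the list was 0.17, against -0.21 with all arrays.

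Genes of the acute-phase response of hepatocytes to cytokines averaged 0.82, -0.53 and 1.16 above or below their own mean in Pfn2-/- replicates 1 to 3, against -0.48, -0.51 and -0.45 in wild-type replicates 1 to 3. Saa3 was above wild type in all 3 Pfn2-/- arrays, at 6.95, 6.69 and 8.18 in Pfn2-/- replicates 1 to 3, against 6.07, 6.16 and 6.12 in wild-type replicates 1 to 3. Pfn2-/- replicate 2, at the wild-type level for the list, had Lepr at 4.94 and Igfbp1 at 7.18. These were the highest Pfn2-/- values of each gene, and both lay below every wild-type array. Every Pfn2-/- array does so for these genes, which were chosen for their large differences. The part of the acute-phase response in those differences was not tested.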
